A study of Mus musculus with 9 samples.

Results

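The 37 genes described here encode the machinery of DNA replication and S phase: the MCM helicase, the factors that load and fire replication origins, the DNA polymerases and primase, the sliding clamp with its loader and the single-strand binding protein RPA, the enzymes of Okazaki fragment maturation and nucleotide supply, chromatin factors of the replication fork, and regulators of entry into S phase. Each gene was followed through the probe sets that the platform annotation assigns to it alone. Of the 37 genes, 36 had the 3 usable probe sets required for a gene level, out of 16854 genes measured; Rrm2 had 1 probe set and was not tested. RNA came from the cerebral cortex of mouse embryos of age E13.5, hybridised to an exon array on which short probes cover the single exons of each gene. The 3 genotypes compared had 3 samples each: Sfpq-/- embryos, Sfpq+/- embryos and wild type control embryos. Sfpq encodes a nuclear RNA-binding protein that acts in transcription and RNA processing.

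The labels give neither the deleted exons nor a promoter or Cre driver, and they name no litter. The p-values therefore reflect only how far these samples scatter, which may in part be technical. In the extraction notes Sfpq+/- is written where each of the mutant genotypes should stand, and Sfpq-/- is missing; the genotype of each array was taken from its title and genotype field. All values are on the log2 scale of array signal, where a difference of 1 is a doubling, and signals of different genes are not comparable with each other. In RNA from whole cortex, fewer dividing cells and less RNA per cell cannot be told apart.

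Replication starts from licensed origins. In G1 the origin recognition complex, Cdc6 and Cdt1 load the ring-shaped MCM complex onto DNA; at the start of S phase GINS and Cdc45 join it to form the active helicase, and DNA polymerase alpha with primase lays down the primers that polymerases delta and epsilon extend behind the clamp Pcna. Many of these genes are transcribed as cells pass from G1 into S phase under the E2F transcription factors. In the embryonic cortex they are active in the dividing progenitors, radial glia and intermediate progenitors.

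The promoters of these genes are shown first, since E2F sites are the feature that the family is known to share. RefSeq promoter windows of assembly GRCm38.p6, from 250 bases before to 50 bases after an annotated start, were found for 31 of the 37 genes. They were searched on both strands for 4 octamers of the E2F consensus, TTTCCCGC, TTTGGCGC, TTTGCCGC and TTTCGCGC, and a gene with several starts was counted once if any window matched. Of the 31 genes, 11 held such an octamer (35.5%), as did 22 of 51 other replication genes (43.1%), against 2.6% of 27025 genes of all kinds and 3.3% of protein-coding genes. The CCAAT box (CCAAT), the site of the factor NF-Y, was found in 19 of the 31 (61.3%) against 41.1% of all genes. The CHR element (TTTGAA), a site typical of genes expressed in G2 and mitosis, was found in 2 (6.5%) against 20.2% of all genes.

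Pola1, the gene with the largest difference between genotypes, held 1 E2F octamer 138 bases before its start and a CCAAT box nearer to it. Its 250 bases before the start, on the minus strand at chrX:93632156-93632405, are given from 5′ to 3′ with the E2F octamer (read from the other strand) and the CCAAT box (as ATTGG) in capitals.
Pola1: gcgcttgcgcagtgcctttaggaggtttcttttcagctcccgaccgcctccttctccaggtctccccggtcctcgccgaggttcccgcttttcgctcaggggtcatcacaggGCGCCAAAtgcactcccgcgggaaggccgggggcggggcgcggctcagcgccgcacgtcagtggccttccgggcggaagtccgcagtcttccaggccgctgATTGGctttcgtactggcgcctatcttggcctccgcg

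The same kind of octamer was found in Mcm3, Mcm5, Mcm6 and Mcm7 and not in the window of Mcm2, while Mcm4 had no window; none of these genes passed the test. Cdc6 and Uhrf1, whose means were lower without passing the test, held it too. The stretches below hold 1 octamer each in capitals with 26 bases on either side: Mcm5 at chr8:75109334-75109393 on the plus strand, Mcm6 at chr1:128359782-128359841 on the minus strand, Mcm7 at chr5:138172015-138172074 on the minus strand, Cdc6 at chr11:98907987-98908046 on the plus strand and Uhrf1 at chr17:56304102-56304161 on the plus strand. In Mcm5 and Mcm6 another matching octamer overlaps the one in capitals.
Mcm5: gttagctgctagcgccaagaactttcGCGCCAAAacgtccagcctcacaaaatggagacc
Mcm6: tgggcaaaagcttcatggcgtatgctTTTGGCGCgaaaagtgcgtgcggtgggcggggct
Mcm7: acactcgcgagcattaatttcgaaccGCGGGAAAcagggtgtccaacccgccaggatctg
Cdc6: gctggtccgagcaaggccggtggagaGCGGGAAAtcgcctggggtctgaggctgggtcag
Uhrf1: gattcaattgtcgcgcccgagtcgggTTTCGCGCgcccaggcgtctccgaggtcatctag

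The genes with and without an E2F octamer differed little in what they did between genotypes. In Sfpq-/- against control cortex the median difference was -0.09 over the 11 measured genes with an octamer, 9 of them below 0, and -0.13 over the 19 measured genes without one, 17 of them below 0. These figures describe letters in a window and were not tested.

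Sfpq itself was checked first. Its 12 brightest probe sets, those with a control mean above 10, averaged 10.08, 10.31 and 9.99 on the Sfpq-/- arrays, 12.08, 11.87 and 11.93 on the Sfpq+/- arrays, and 12.09, 12.07 and 12.12 on the control arrays. The Sfpq-/- arrays lay apart from all others, and the Sfpq+/- arrays lay within or just below the controls. Over all 23 probe sets Sfpq differed by 0.12 in Sfpq+/- against control cortex (95% interval -0.24 to 0.48). Sfpq signal therefore bore out the Sfpq-/- labels and did not tell Sfpq+/- from control arrays. Array medians were between 5.65 and 5.70, and group differences had a median standard error of 0.10 per gene; 3 arrays per group limit the precision. Sfpq-/- 3 stood apart for the replication genes: it was the lowest of the 9 arrays for 28 of the 36 measured genes, where it was the lowest for 22.0% of all genes and for 29.6% of the 2542 genes with mean signals in the middle range of these 36 (9.65 to 10.72). Control 3 was below the control mean for 32 of the 36, as it was for 78.2% of the 2542 genes of like signal. Results that rest on Sfpq-/- 3 are therefore given with and without it.

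In Sfpq-/- against control cortex, Pola1, the catalytic subunit of DNA polymerase alpha, and Gins1, a subunit of the GINS complex, fell, by 0.78 and 0.47 on the log2 scale. No gene of the 36 rose. The two-sided limma test with Benjamini-Hochberg adjustment over all 16854 genes thus called 2 of 36 (5.56%), both lower, where it called 12.1% of all genes, 6.12% lower and 5.98% higher: the share called is no larger than the background. At an unadjusted p under 0.05 it was 6 of 36, against 24.2% of all genes. The 36 means nevertheless leaned to one side. Of them 30 (83.3%) were below 0, against 43.2% of all genes, and their median was -0.12, with quartiles of -0.17 and -0.07 and extremes of -0.78 and 0.12, against a median of 0.03 over all genes. Genes of like signal had a median of 0.06, with 36.0% below 0. In 7 of the 36 (19.4%) every Sfpq-/- array was below every control array, against 10.8% of all genes; these were Pola1, Gins1, Gins2, Pcna, Rpa2, Rfc5 and E2f1.

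The lean differed in size between the Sfpq-/- arrays, and less so when set against genes of like signal. Median deviations from the control mean over the 36 genes were -0.08, -0.01 and -0.25 on Sfpq-/- 1, 2 and 3, then -0.02, -0.01 and 0.01 on the Sfpq+/- arrays, and 0.05, 0.04 and -0.08 on control 1, 2 and 3. Genes of like signal had 0.07, 0.13 and -0.04 on the same 3 Sfpq-/- arrays, so the replication genes lay below them by gaps of -0.16, -0.13 and -0.21. The gaps were between -0.08 and -0.02 on the Sfpq+/- arrays and between -0.02 and 0.02 on the control arrays. The control arrays make up the control mean, so their gaps are centred near 0 by construction and do not measure the spread between embryos. Sfpq-/- 3 was below the control mean for all 36 measured genes, Sfpq-/- 1 for 29 and Sfpq-/- 2 for 20. Without Sfpq-/- 3, 23 of the 36 were below 0, against 41.2% of all genes. Pola1 alone was called, lower, where 5.79% of all genes were called lower and 8.76% higher. The median of the 36 was then -0.05, against 0.05 over all genes and 0.10 over genes of like signal. Its gap to all genes was -0.10 without that array and -0.15 with it. Without Sfpq-/- 2, the median was -0.18. Gins1, Pcna, Pola1 and Uhrf1 were then called, 4 of 36, all lower. In that fit 1937 of all 16854 genes were called, 1168 of them lower.

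**Figure D1:**
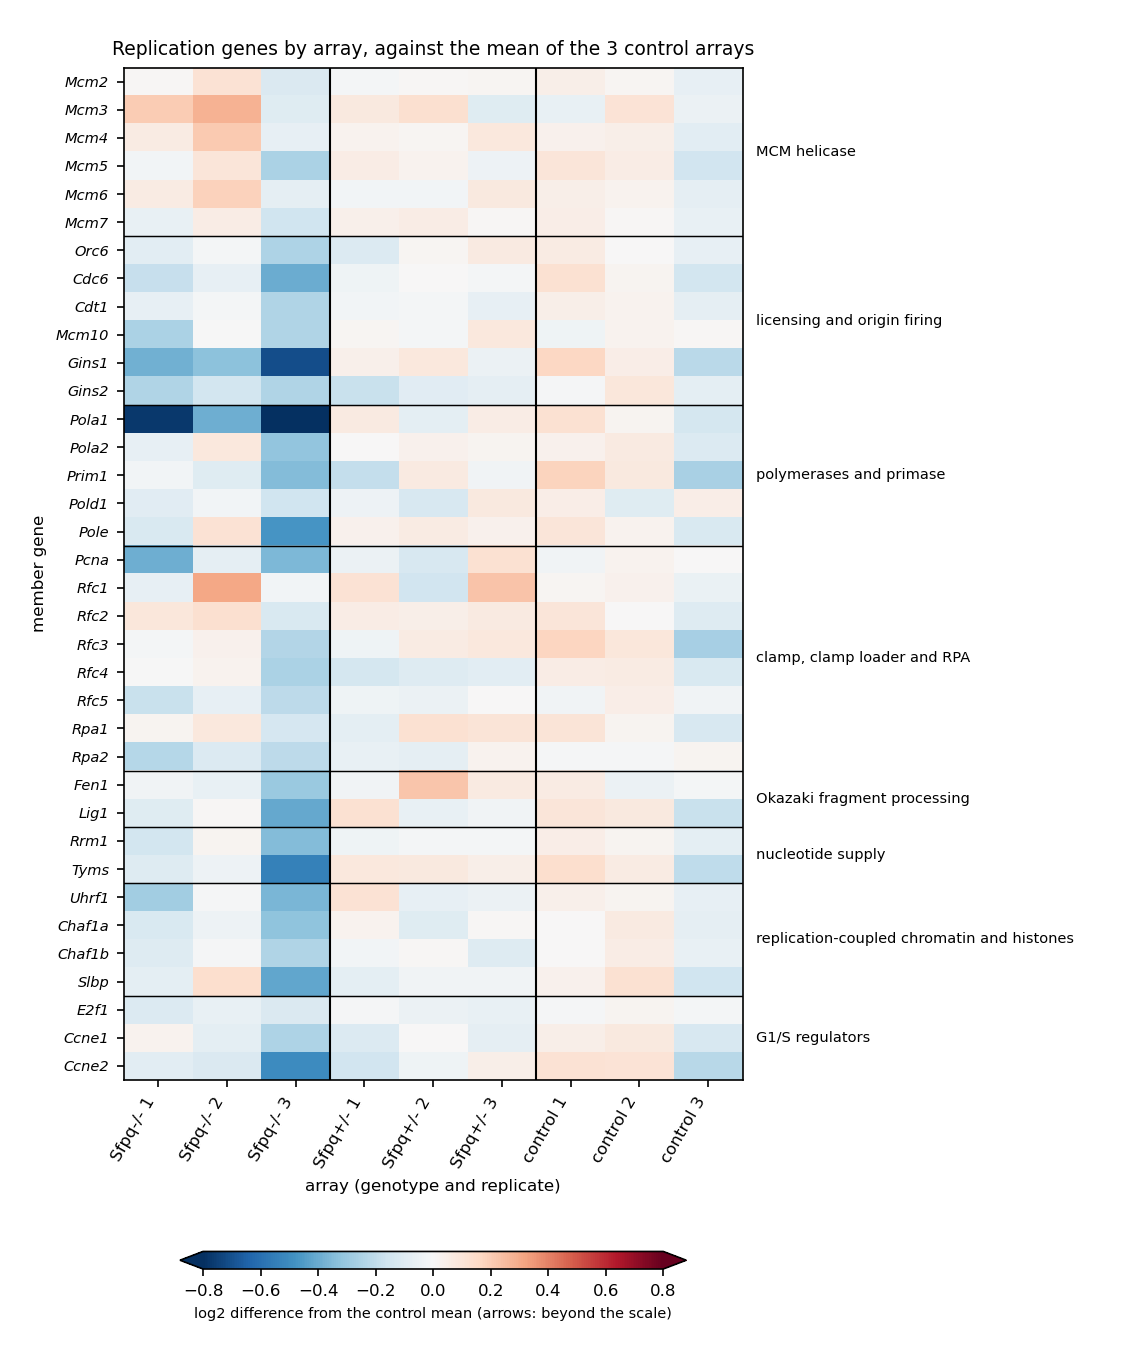
Difference of each of the 36 measured replication genes (rows, grouped by role) from its own mean over the 3 control arrays, for each of the 9 arrays (columns), as colour on the log2 scale, with blue for lower. The Sfpq-/- 3 column is blue for all 36 genes, Pola1 and Gins1 are blue on all 3 Sfpq-/- arrays, and Pola1 passes the end of the colour scale on Sfpq-/- 3.

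The gene levels of the MCM helicase lay on both sides of 0, and a difference from the other roles was not tested. Mcm2 to Mcm7 encode the 6 subunits of the ring that unwinds DNA at the fork. None passed the test in Sfpq-/- against control cortex, 2 of 6 were below 0 and the median was 0.03, the same as over all genes. Differences were between -0.06 for Mcm5 and 0.12 for Mcm3, and the 95% intervals of the 6 genes lay between -0.29 and 0.36, so changes of the size seen in Pola1 lie outside them. Mcm3 had the largest difference of the group: its signal was 10.82, 10.90 and 10.52 on the Sfpq-/- arrays, 10.70, 10.75 and 10.52 on the Sfpq+/- arrays, and 10.56, 10.73 and 10.57 on the control arrays. Sfpq-/- 1 and 2 were the highest of the 9 and Sfpq-/- 3 was level with the lowest, so the groups overlapped (difference 0.12, SE 0.11, adjusted p = 0.563). Over the group the median deviations were 0.04, 0.15 and -0.10 on Sfpq-/- 1, 2 and 3, and without Sfpq-/- 3 none of the 6 was below 0 and the median was 0.09. By probe set, Mcm7 had 28 of 33 below 0 (median -0.10) and Mcm5 17 of 21 (median -0.13). Those of Mcm5 disagreed most: the highest was at 0.89, where control 3 read 5.89 and control 1 and 2 read 8.71 and 8.54.

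The licensing and origin firing genes were all below 0, with a median of -0.19 over 6 and 1 call, Gins1; without Sfpq-/- 3 all 6 were again below 0, with a median of -0.13 and no call. GINS is the complex that joins the MCM ring and Cdc45 to make the moving helicase, and Gins1 encodes its Psf1 subunit. Gins1 signal was 9.46, 9.52 and 9.14 on the Sfpq-/- arrays, 9.89, 9.93 and 9.80 on the Sfpq+/- arrays, and 10.01, 9.90 and 9.63 on the control arrays. Every Sfpq-/- array was below every other array, although Sfpq-/- 2 and control 3 were 9.52 and 9.63. The mean was 9.37 ± 0.20 in Sfpq-/- and 9.85 ± 0.19 in control cortex (SD, n = 3 each), a difference of -0.47 (SE 0.12, 95% interval -0.73 to -0.21, 0.72 times the control, limma adjusted p = 0.0257). All 8 of its probe sets were lower, by similar amounts, between -0.57 and -0.37. The call ended without Sfpq-/- 1 (adjusted p = 0.0519), Sfpq-/- 3 (0.0545), control 1 (0.0877) or control 2 (0.0947), with differences between -0.58 and -0.35 over all fits that left out 1 array.

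Gins2, which encodes the Psf2 subunit of the same complex, had 9.63, 9.72 and 9.63 on the Sfpq-/- arrays, 9.69, 9.78 and 9.80 on the Sfpq+/- arrays, and 9.86, 9.96 and 9.79 on the control arrays. The Sfpq-/- arrays were below the controls without overlap, and the Sfpq+/- arrays lay between, overlapping both. The difference of -0.21 (SE 0.08) did not pass (adjusted p = 0.106). The other GINS subunits, Gins3 and Gins4, were at -0.05 (adjusted p = 0.883) and -0.04 (adjusted p = 0.836). A difference among the subunits was not tested.

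Cdc6, the ATPase that loads MCM rings with the origin recognition complex, had 8.83, 8.95 and 8.62 on the Sfpq-/- arrays, 8.98, 9.02 and 9.0 on the Sfpq+/- arrays, and 9.14, 9.04 and 8.87 on the control arrays. Sfpq-/- 2 was above control 3, so the groups overlapped (difference -0.22, SE 0.10, adjusted p = 0.203). Mcm10, which helps the loaded helicase to start, differed by -0.17 (adjusted p = 0.25), Orc6, the smallest subunit of the origin recognition complex, by -0.12, and Cdt1, which brings MCM rings to the origin, by -0.11. None of these 3 passed and all 3 overlapped the controls.

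All 5 polymerase and primase genes were below 0, with a median of -0.16, and Pola1 alone passed; without Sfpq-/- 3, 4 were below 0, the median was -0.06 and Pola1 passed. Pola1 signal was 8.48, 8.86 and 8.05 on the Sfpq-/- arrays, 9.32, 9.17 and 9.31 on the Sfpq+/- arrays, and 9.37, 9.27 and 9.11 on the control arrays. The 3 Sfpq-/- arrays were below the other 6 without overlap and were also the most spread. The mean was 8.47 ± 0.40 in Sfpq-/- and 9.25 ± 0.13 in control cortex (SD, n = 3 each), a difference of -0.78 (SE 0.16, 95% interval -1.15 to -0.42, 0.58 times the control, limma adjusted p = 0.00951). It was called in all 18 alternative settings, with differences between -0.98 and -0.58, the last without Sfpq-/- 3.

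Of 38 probe sets of Pola1, 37 were lower in Sfpq-/- than in control cortex, with a median of -0.83. The lowest, at -1.25, read 9.71, 9.94 and 9.57 on the Sfpq-/- arrays, 10.70, 10.62 and 10.99 on the Sfpq+/- arrays, and 11.07, 11.01 and 10.87 on the control arrays. The highest, at 0.10, read 9.94, 10.08 and 9.29 on the Sfpq-/- arrays, 9.89, 9.83 and 9.80 on the Sfpq+/- arrays, and 9.78, 9.73 and 9.48 on the control arrays. The decrease therefore ran through nearly all of the probed sequence of Pola1 and was uneven in size; positions of probe sets within the gene were not used here.

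Pola1 lies on the X chromosome, and embryo sex was not matched between the groups. Xist, which the inactive X chromosome transcribes, read 11.48, 5.06 and 5.19 on the Sfpq-/- arrays, 4.90, 5.20 and 5.87 on the Sfpq+/- arrays, and 11.79, 11.65 and 5.29 on the control arrays. The part of embryo sex in the Pola1 values was not tested. Among arrays low in Xist, Pola1 was 8.86 and 8.05 on Sfpq-/- 2 and 3, against 9.32, 9.17 and 9.31 in Sfpq+/- and 9.11 on control 3. Among those high in Xist it was 8.48 on Sfpq-/- 1, against 9.37 and 9.27 on control 1 and 2.

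Pola1 works in a complex with a regulatory subunit and primase. Pola2, the regulatory B subunit, was at -0.10 (95% interval -0.32 to 0.12, adjusted p = 0.621), and Prim1, the catalytic primase subunit, at -0.16 (95% interval -0.44 to 0.12, adjusted p = 0.524). Prim2, the large primase subunit and a gene outside the 37, fell by 0.86 (SE 0.11, adjusted p = 0.000361). It read 10.40, 10.55 and 10.11 on the Sfpq-/- arrays, 11.17, 11.24 and 11.11 on the Sfpq+/- arrays, and 11.29, 11.25 and 11.10 on the control arrays, with no overlap. Of the catalytic subunits of the fork polymerases, Pole (polymerase epsilon) was at -0.16 (adjusted p = 0.516) and Pold1 (polymerase delta) at -0.09 (adjusted p = 0.585). Pole was lowest on Sfpq-/- 3 and above the control range on Sfpq-/- 2 (10.09, with controls between 9.85 and 10.07).

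The 8 clamp, clamp loader and RPA genes had no call, 6 below 0 and a median of -0.08. Without Sfpq-/- 3 the direction of that median turned, with 3 of 8 below 0 and a median of 0.01. Pcna, the ring that holds polymerases on DNA, read 11.97, 12.29 and 12 on the Sfpq-/- arrays, 12.31, 12.23 and 12.48 on the Sfpq+/- arrays, and 12.33, 12.39 and 12.36 on the control arrays. All Sfpq-/- arrays were below the narrow range of the controls, and Sfpq-/- 2 lay within the Sfpq+/- range. The difference of -0.27 (SE 0.10, 0.83 times the control, adjusted p = 0.114) did not pass with all arrays; it was -0.37 without Sfpq-/- 2 (adjusted p = 0.0218). All 15 probe sets of Pcna were below 0. RefSeq names 2 pseudogenes after Pcna, and whether its probes also bind their copies was not tested.

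Rpa2, the middle subunit of the single-strand binding complex RPA, read 9.56, 9.68 and 9.58 on the Sfpq-/- arrays, 9.73, 9.72 and 9.82 on the Sfpq+/- arrays, and 9.78, 9.78 and 9.81 on the control arrays. The Sfpq-/- arrays were below all others, by a margin that did not pass the test (-0.18, SE 0.07, adjusted p = 0.131). Rpa1, the large DNA-binding subunit of the same complex, was at -0.01 (95% interval -0.22 to 0.19). Rfc5, a small subunit of the clamp loader, read 10.62, 10.73 and 10.59 on the Sfpq-/- arrays, 10.76, 10.75 and 10.80 on the Sfpq+/- arrays, and 10.77, 10.85 and 10.77 on the control arrays. These groups did not overlap either, and the difference of -0.15 (SE 0.07) did not pass (adjusted p = 0.219). The other clamp loader subunits, Rfc1 to Rfc4, were at 0.07, 0.03, -0.07 and -0.08, all overlapping the controls, with adjusted p between 0.688 and 0.869.

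Okazaki fragments are trimmed by the flap endonuclease Fen1 and joined by DNA ligase 1 (Lig1). Lig1 read 9.99, 10.10 and 9.68 on the Sfpq-/- arrays, 10.21, 10.03 and 10.06 on the Sfpq+/- arrays, and 10.19, 10.17 and 9.91 on the control arrays. Only Sfpq-/- 3 was outside the range of the other arrays (difference -0.17, SE 0.12, adjusted p = 0.447), and without it the difference was -0.05. Fen1 was at -0.13 (adjusted p = 0.472).

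Of the nucleotide supply genes, Tyms, thymidylate synthase, read 10.14, 10.20 and 9.70 on the Sfpq-/- arrays, 10.33, 10.32 and 10.29 on the Sfpq+/- arrays, and 10.38, 10.31 and 10.04 on the control arrays. Again Sfpq-/- 3 and control 3 were the lowest of their groups, and the groups overlapped (difference -0.23, SE 0.13, adjusted p = 0.324; -0.08 without Sfpq-/- 3). RefSeq names 1 pseudogene after Tyms. Rrm1, the large subunit of ribonucleotide reductase, was at -0.16 (adjusted p = 0.345), with all 21 probe sets below 0. Rrm2, the small subunit, has a single probe set here, which read 6.46, 7.29 and 6.43 on the Sfpq-/- arrays, 7.41, 7.54 and 7.05 on the Sfpq+/- arrays, and 7.24, 7.62 and 6.68 on the control arrays. Sfpq-/- 2 lay among the controls and the other 2 Sfpq-/- arrays below them; the means were 6.73 ± 0.49 in Sfpq-/-, 7.33 ± 0.26 in Sfpq+/- and 7.18 ± 0.47 in control cortex (SD, n = 3 each).

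The 4 chromatin and histone genes were all below 0, with a median of -0.14 and no call; without Sfpq-/- 3, 3 of 4 were below 0 and the median was -0.07. Uhrf1, which reads hemimethylated DNA behind the fork and recruits the maintenance methyltransferase, read 10.51, 10.78 and 10.42 on the Sfpq-/- arrays, 10.90, 10.72 and 10.74 on the Sfpq+/- arrays, and 10.83, 10.81 and 10.72 on the control arrays. Sfpq-/- 2 was within the control range and the other 2 below it (difference -0.22, SE 0.10, adjusted p = 0.209; -0.32 without Sfpq-/- 2, adjusted p = 0.0363). All 20 probe sets of Uhrf1 were below 0, between -0.42 and -0.05. Chaf1a and Chaf1b, subunits of the chromatin assembly factor that deposits histones on new DNA, were at -0.16 (adjusted p = 0.302) and -0.12 (adjusted p = 0.441), and Slbp, which binds the stem-loop of histone mRNAs, was at -0.13 (adjusted p = 0.631).

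Among the G1/S regulators, Ccne2, a cyclin E that activates Cdk2, read 9.61, 9.58 and 9.19 on the Sfpq-/- arrays, 9.54, 9.66 and 9.74 on the Sfpq+/- arrays, and 9.81, 9.80 and 9.47 on the control arrays. Control 3 was below Sfpq-/- 1 and 2, and the difference of -0.23 (SE 0.13) did not pass (adjusted p = 0.314). The other cyclin E gene, Ccne1, was at -0.10 (adjusted p = 0.592). E2f1, the transcription factor that activates many of the genes above, was at -0.09 (SE 0.06, adjusted p = 0.444), with the Sfpq-/- arrays between 9.63 and 9.69 and the controls between 9.73 and 9.77.

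**Figure D2:**
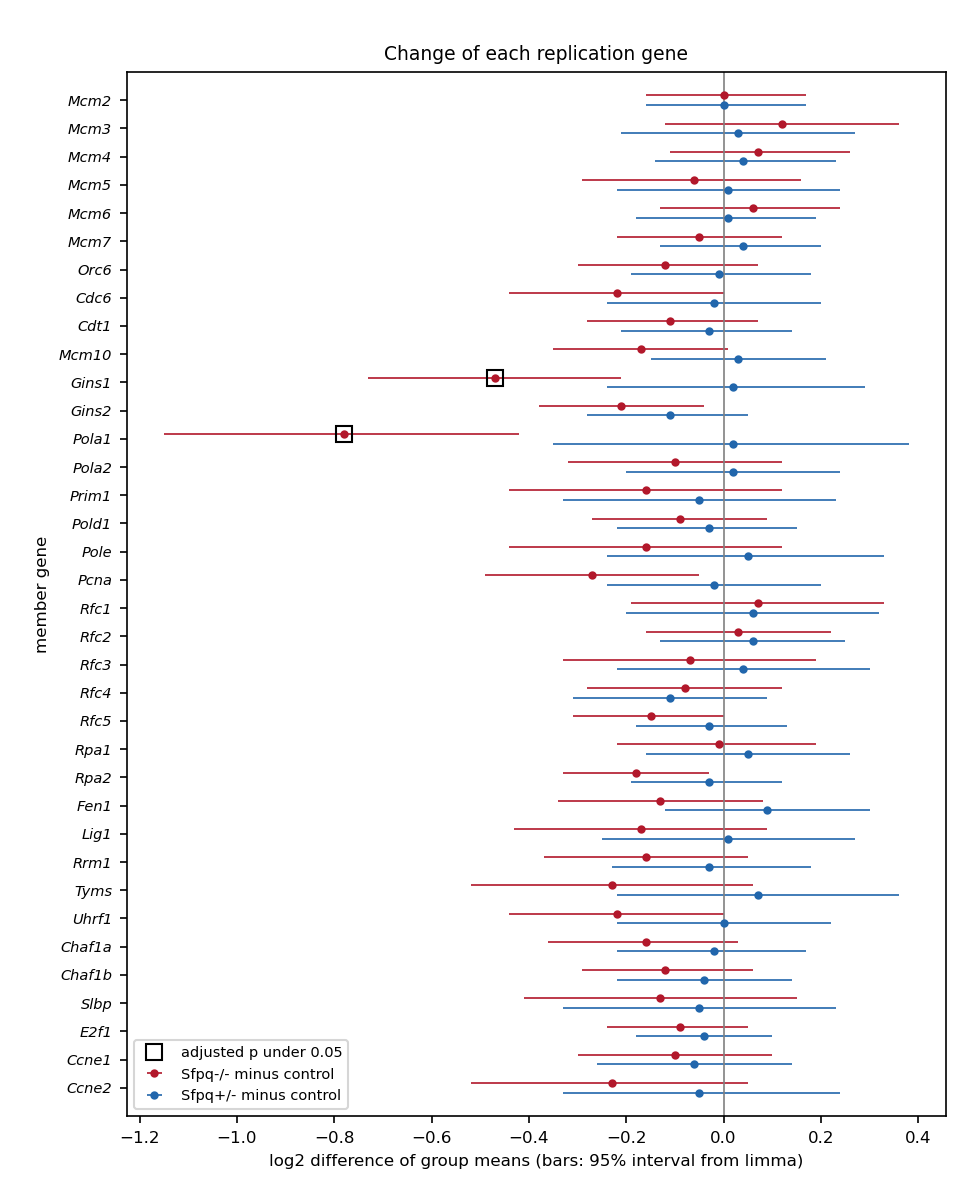
Difference of each group mean from the control mean (points) with its 95% interval from limma (bars), log2 scale, for Sfpq-/- (red) and Sfpq+/- (blue). Boxes mark the 2 genes with an adjusted p under 0.05, Pola1 at -0.78 and Gins1 at -0.47, and no Sfpq+/- difference is marked.

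Single probe sets give a finer view of the same arrays. Of 690 usable probe sets of the 37 genes, 544 (78.8%) were below 0 in Sfpq-/- against control cortex, where 45.7% of 248590 probe sets of all measured genes were; without Sfpq-/- 3 it was 444 (64.3%), against 43.6% of all. Probe sets of a gene share its RNA and are not replicates. In 8 of the 36 measured genes every probe set was below 0: Gins1, Gins2, Pcna, Rpa2, Fen1, Rrm1, Uhrf1 and Ccne2. By contrast 15 of 21 probe sets of Mcm6 and 13 of 16 of Mcm3 were above 0, with medians of 0.05 and 0.12.

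**Figure D3:**
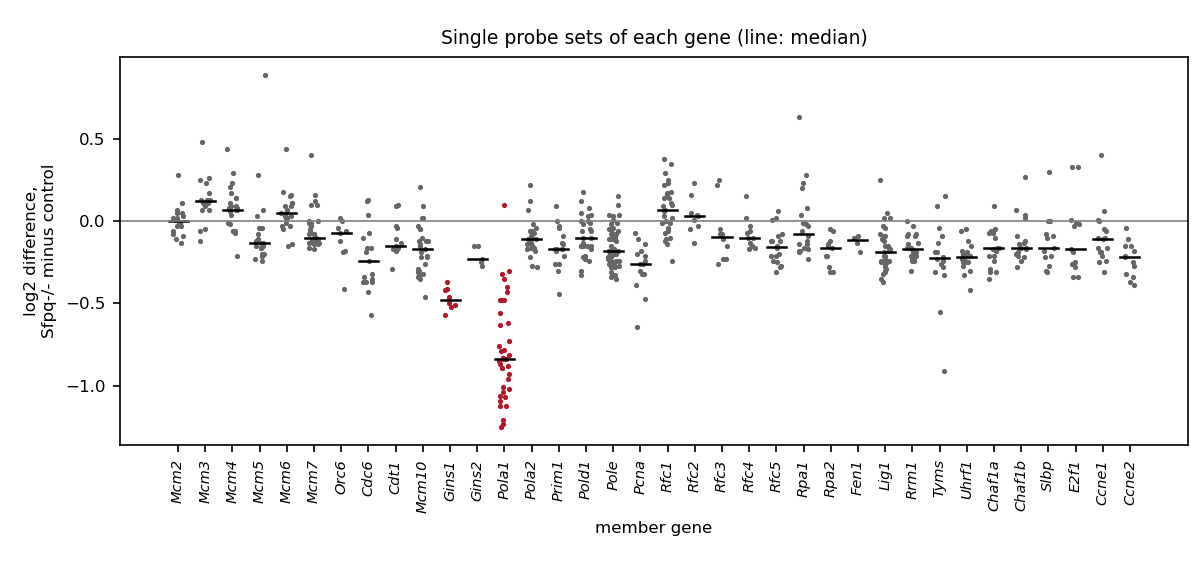
Sfpq-/- minus control difference (log2) of every usable probe set of the 36 measured genes, with a bar at the median of each gene; Pola1 and Gins1 are in red. The probe sets of Gins1 lie between -0.57 and -0.37 and those of Pola1 spread between -1.25 and 0.10, while single probe sets of other genes reach -0.91 (Tyms), -0.64 (Pcna) and 0.89 (Mcm5).

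Sfpq+/- against control cortex gave no call among the 36 genes, and none had an unadjusted p under 0.05. Over all genes limma called 0 (0%), with 4.24% at an unadjusted p under 0.05. Of the 36, 18 were below 0, against 38.8% of all genes, and the median was 0.00, with extremes of -0.11 for Gins2 and 0.09 for Fen1. Genes of like signal had a median of 0.06, with 20.5% below 0, so the 36 lay lower than these here too. That gap was not tested. Pola1 was at 0.02 (95% interval -0.35 to 0.38) and Gins1 at 0.02 (95% interval -0.24 to 0.29), so neither interval reached the Sfpq-/- estimate of its gene. All 3 Sfpq+/- arrays were low in Xist, as was 1 control array.

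Sfpq-/- against Sfpq+/- cortex called the same 2 genes, Pola1 at -0.80 (SE 0.16, adjusted p = 0.00801) and Gins1 at -0.50 (SE 0.12, adjusted p = 0.0188), 5.56% of the 36 against 11.8% of all genes (7.25% lower and 4.58% higher). This comparison uses the same Sfpq-/- arrays as the one with the controls, so the repeat is not independent. The 36 genes had 30 below 0, against 43.5% of all genes, a median of -0.11, against 0.03 over all genes, and extremes of -0.80 and 0.09 for Mcm3. Genes of like signal had 49.3% below 0 and a median of 0.00. Without Sfpq-/- 3, 25 of the 36 were below 0, against 40.9% of all genes, and their median was -0.04, against 0.04 over all genes. Genes of like signal then had 38.4% below 0 and a median of 0.05. In 7 (19.4%) all Sfpq-/- arrays were below all Sfpq+/- arrays, against 13.6% of all genes: Pola1, Gins1, Cdc6, Rfc5, Rpa2, Fen1 and Tyms. Of those that did not pass, Tyms was at -0.30 (adjusted p = 0.2), Fen1 at -0.22 (adjusted p = 0.202) and Pcna at -0.25 (adjusted p = 0.153). The Gins1 call ended without Sfpq+/- 1 (adjusted p = 0.0679) or Sfpq+/- 2 (0.0751).

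The other genes of the pathway, a list of 61 with 59 measured, showed a like picture. In Sfpq-/- against control cortex 4 fell and 1 rose (8.47% called, against 12.1% of all genes). Of the 59, 45 (76.3%) were below 0, against 43.2% of all genes, and the median was -0.11, against 0.03 over all genes. Those that fell were Prim2, described above, Tk1, E2f3 and Rnaseh2a, and Samhd1 rose. Tk1, the thymidine kinase of the salvage pathway, read 8.84, 8.96 and 8.64 on the Sfpq-/- arrays, 9.45, 9.54 and 9.40 on the Sfpq+/- arrays, and 9.62, 9.56 and 9.41 on the control arrays. Its Sfpq-/- arrays were well below all others (difference -0.72, SE 0.10, adjusted p = 0.000518). E2f3, an activating E2F factor, was at -0.41 (adjusted p = 0.0255), Rnaseh2a, the catalytic subunit of the RNase that removes ribonucleotides from DNA, at -0.26 (adjusted p = 0.0322), and Samhd1, which breaks down deoxynucleotides, at 0.32 (adjusted p = 0.044). Leaving out 1 array ended the Samhd1 call in 8 of 9 fits, the Rnaseh2a call in 7 and the E2f3 call in 4, the E2f3 and Rnaseh2a calls without Sfpq-/- 3 among them (adjusted p = 0.0594 and 0.0636), and ended neither the Prim2 nor the Tk1 call. Without Sfpq-/- 3 the list had 31 of 59 below 0 and a median of -0.00, with 2 lower and 3 higher calls. Of all genes 41.2% were then below 0, with a median of 0.05, and 5.79% were called lower and 8.76% higher.

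Gene length separated Pola1 from the rest of the 36. By RefSeq, Pola1 spans 327.6 kb, the next longest, Rfc1, 76.8 kb, and the median is 15.9 kb. Of all measured genes of 100 kb and over, 27.0% of 2254 were called lower in Sfpq-/- against control cortex, against 1.9% of those under 20 kb. The share was 3.1% for genes of 20 to 50 kb and 5.6% for those of 50 to 100 kb. Of the other replication genes 2 are of 100 kb and over: Prim2 spans 216.0 kb, and Rb1, the retinoblastoma protein gene, spans 133.1 kb and was not called (-0.19, adjusted p = 0.245). The replication genes under 100 kb that were called lower were E2f3 (79.5 kb), Gins1 (21.7 kb), Rnaseh2a (13.0 kb) and Tk1 (10.6 kb). None of the 22 measured genes of the 36 under 20 kb was called, and their median was -0.11 with 18 below 0. With 1 gene of 100 kb and over, a relation with length within the 36 was not tested.

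**Figure D4:**
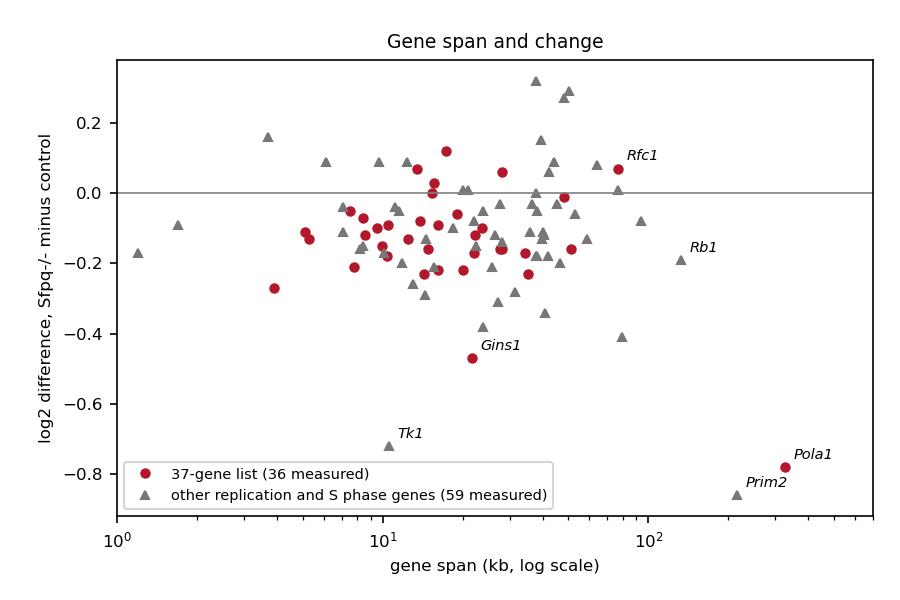
Gene span in kb (log axis) against the Sfpq-/- minus control difference (log2) for the 36 measured genes of the list (red circles) and the 59 other replication genes (grey triangles). Pola1 and Prim2 lie at the lower right, with 327.6 and 216.0 kb and differences of -0.78 and -0.86, and Gins1 and Tk1 are low at much shorter spans.

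Genes of the later cell cycle were read beside the replication genes. The G2 and M phase list had 5 of 19 lower in Sfpq-/- against control cortex (26.3%, against 6.12% of all genes), all 19 below 0 (against 43.2%) and a median of -0.28 (against 0.03). The 5 were the mitotic kinases Aurkb (-0.39), Plk1 (-0.35) and Aurka (-0.46), the cyclin Ccnb2 (-0.32) and the kinesin Kif20a (-0.37, adjusted p = 0.0494). Of 9 fits without 1 array, the Kif20a call ended in 8, the Ccnb2 call in 3 and the Aurka call in 2, and those of Aurkb and Plk1 held in all. The median deviations ran over the arrays in the same order as for replication, -0.32, -0.03 and -0.53 on Sfpq-/- 1, 2 and 3. Without Sfpq-/- 3 the list had 17 of 19 below 0, against 41.2% of all genes, and a median of -0.12. It then had 4 calls, all lower, where 5.79% of all genes were called lower. A difference between the 2 lists was not tested. Of 9 genes of cell cycle exit and G1, 2 fell and 2 rose (44.4% called, against 12.1% of all genes). Cdkn2c, a Cdk inhibitor, fell by 0.94 (adjusted p = 6.24e-05) and Ccnd2, a cyclin D, by 0.42 (adjusted p = 0.00506). Ccnd1 was higher by 0.37 (adjusted p = 0.0142) and the Cdk inhibitor Cdkn1a by 0.52 (adjusted p = 0.0161). The Cdkn1a call ended in 3 of 9 fits without 1 array and the Ccnd1 call in 1.

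Markers of the cell types in the tissue were read beside these. The 12 radial glia markers, the main dividing cells, had 1 call, Lhx2 at -0.34 (8.33% called, against 12.1% of all genes), and a median of 0.03. Their mean signals were between 10.61 and 10.87 in Sfpq-/-, 10.79 and 10.85 in Sfpq+/-, and 10.68 and 10.80 in control cortex. These markers went both ways, from -0.34 to 0.25, and 4 of 12 had an unadjusted p under 0.05, against 24.2% of all genes. Of 8 intermediate progenitor markers, 4 fell and 1 rose (62.5% called, against 12.1% of all genes). Neurod4 (-1.11), Neurog2 (-0.92), Insm1 (-0.37) and Eomes (-0.23) fell and Dll3 (0.70) rose. The Eomes call ended in 8 of 9 fits without 1 array. Median deviations of this list were -0.27, -0.18 and -0.33 on Sfpq-/- 1, 2 and 3 and between -0.05 and 0.09 on the other arrays. Of 12 neuronal markers, Syt1 (-0.77), Neurod6 (-0.41) and Sox5 (-0.59) fell (25%, against 6.12% of all genes). The list went both ways, with 8 below 0, 4 above 0 and a median of -0.06. Tbr1 was at 0.14 with every Sfpq-/- array above the controls, and did not pass. In Sfpq+/- against control cortex all 12 neuronal markers were above 0, with a median of 0.16 and no call. Against Sfpq+/- cortex all 12 were below 0 in Sfpq-/-, with a median of -0.21. There 4 were called, all lower (33.3%, against 7.25% of all genes). Red cell precursors divide too. In Sfpq-/- against control cortex 0 of 9 measured erythroid markers passed, and 2 of them had an unadjusted p under 0.05, against 24.2% of all genes. Their median deviations were -0.06, 0.01 and -0.30 on Sfpq-/- 1, 2 and 3, low on the same array as the replication genes. Of 12 microglia and macrophage markers 7 rose (58.3%, against 5.98% of all genes), all 12 were above 0 and the median was 0.29. These calls were sensitive to single arrays: that of Cx3cr1 ended in 9 of 9 fits without 1 array, P2ry12 in 8, C1qb and C1qc in 7 each, Trem2 in 5 and Tyrobp in 3, and Cd68 (0.51) kept its call in all of them. Without Sfpq-/- 3 the list had 3 calls, all higher, where 8.76% of all genes were called higher. Against Sfpq+/- cortex it had 2, both higher (16.7%, against 4.58% of all genes). Of 11 measured endothelial and pericyte markers 1, Rgs5, rose (9.09%, against 5.98% of all genes). Its difference was 0.30 (limma adjusted p = 0.028), and the call ended in 5 of 9 fits without 1 array. All 11 were above 0 with a median of 0.11. Of 12 meningeal and mesenchymal markers 11 were above 0, with a median of 0.14 and no call. The part of these cell types in the replication gene values was not tested.

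**Figure D5:**
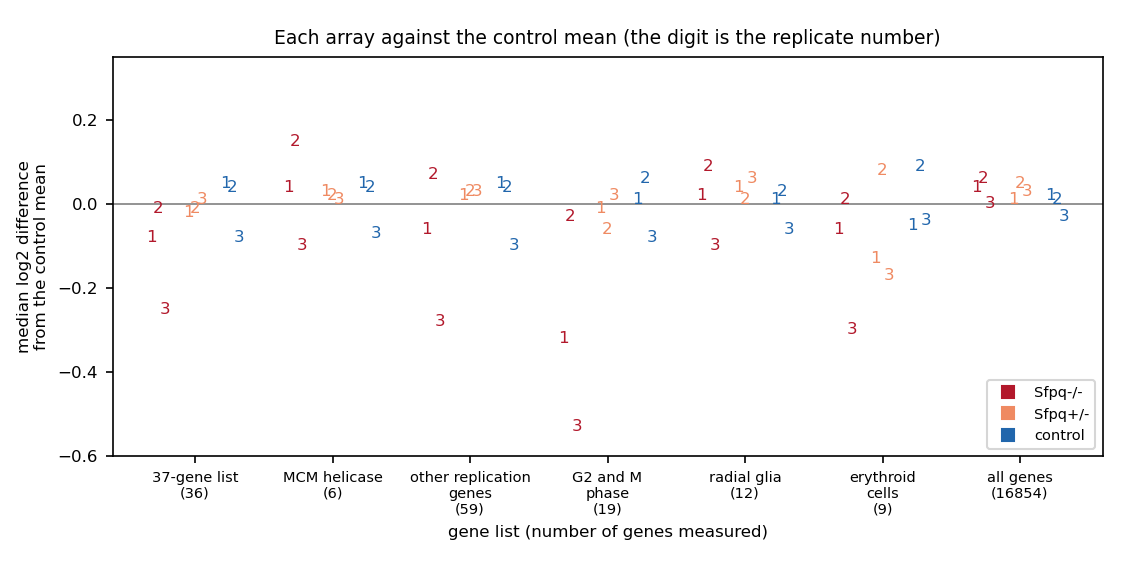
Median difference from the control mean (log2) over each gene list, for each array; digits are replicate numbers, red for Sfpq-/-, orange for Sfpq+/- and blue for control. Of the lists plotted, Sfpq-/- 3 is lowest for each but that of all genes, at -0.25 for the 36 replication genes and -0.53 for G2 and M phase; Sfpq-/- 2 is at -0.01 and -0.03 for these lists.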

How the data were processed

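The authors deposited log2 signals per probe set for 9 Affymetrix exon arrays; the submitters' processing notes name Affymetrix Expression Console, version 1.2.0.20. The unit was taken from the values; how background was corrected and signals were normalized and summarised is not given in the sources used. No normalization was added.

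Of 1256831 probe sets, 318760 (25.4%) had 1 gene symbol in the platform annotation provided, 6684 several and 931387 none there. Only those with 1 were used, with 3993 of 22296 symbols updated through RefSeq. A gene's level was the mean of its probe sets with a mean above 5.64, the median of all probe sets, where at least 3 were left. All 9 arrays entered limma 3.58.1 (R 4.3.3; lmFit and eBayes, 3 group means, no covariate), and genes were called at a Benjamini-Hochberg adjusted p under 0.05; the script was tested on simulated data.

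The members and lists were chosen with earlier results of these data known. All members are described. Values per array are given for those called, for the 8 with the smallest unadjusted p and for the largest difference of each role. Other lists name those called, if at most 10, probe sets of a gene are named by their lowest and highest difference, and Gins3, Gins4, Xist, Pole, E2f1 and Rb1 values were added after they were seen. Promoters, spans and pseudogene names come from RefSeq GRCm38.p6. The alternatives were the filter, the gene level, quantile normalization, centring, variance moderation, 2 groups only, a replicate block, array weights and leaving out each array.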

Additional observations from a re-analysis of the deposited data

How the results depend on the processing

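Pola1 was called in Sfpq-/- against control and against Sfpq+/- cortex in every alternative run. Gins1 kept its direction in all of them and lost its call against control with 2 groups only in the fit (adjusted p = 0.0653), as well as in the 4 fits without 1 array given above. Members called in Sfpq-/- against control cortex numbered 2, and 1 with 2 groups only, 9 with array weights fitted for each gene (a setting added once the data had been seen, which also called Cdc6, Gins2, Mcm10, Pcna, Rfc5, Rpa2 and Uhrf1), and 1 to 4 when each array was left out; all were lower. Over all genes the calls were 2040, against 4612 with those weights and 1311 to 2453 without 1 array. In Sfpq-/- against Sfpq+/- cortex the weights gave 3640 genes (1994 without them) and 5 members, and leaving out 1 array gave 1397 to 2267 genes and 1 to 5 members. Centring each array on its median gene level moved the median of all genes in that comparison to 0.08, and its calls to 1304 higher and 1126 lower, against 772 and 1222; the member median was then -0.05 and the same 2 genes were called. In Sfpq+/- against control cortex the stricter filter called 1 gene and leaving out 1 array 0 to 1, and no member was called. The member median there was -0.02 with the median of probe sets, with quantile normalization and with gene-by-gene weights, -0.05 with centred arrays, and -0.04 to 0.02 without 1 array. The causes were not tested. In Sfpq-/- against control cortex the median of members stayed between -0.18 and -0.05 in all 18 settings. Replicate numbers paired the arrays in part. Same-number correlations of deviations from the group means were 0.28, 0.01 and 0.57 for Sfpq-/- and control. They were 0.25, 0.05 and 0.31 for Sfpq+/- and control, and -0.06, 0.04 and 0.30 for Sfpq-/- and Sfpq+/-. In each comparison the arrays numbered 3 correlated best with each other, and those numbered 2 did so with an array of another number. What same-numbered arrays share was not tested. With the replicate block 2469, 0 and 2367 genes were called in the 3 comparisons, with 2, 0 and 2 members. Weights fitted by REML did not converge and were not used. With 3 arrays per group, differences near the members' median standard error of 0.09 could not be resolved.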
